A study of Mus musculus with 11 samples.

Results

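Heat shock and endoplasmic reticulum (ER) chaperone genes were followed in mouse bone-marrow-derived macrophages in 3 states. The set lists 34 genes, of which 32 were measured among 18193 genes in all: 10 of 12 cytosolic and nuclear genes, 3 of 3 mitochondrial genes and 19 of 19 ER genes. They were chosen from these data because heat shock genes lay higher in M1 than in M0 cells. The M1 and M0 values that chose the genes are therefore given as a description with no test, and so is M1 against M2a, which uses the same M1 arrays. M2a against M0 was tested, although its M0 arrays also took part in the choice. Hsp90ab1 and Hsf1 had no probe set in the probe table used and were not analysed here.

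All 11 samples came from marrow of Rag1-/- C57BL/6 mice aged 7 weeks, a genotype without mature B and T cells that every group shares. The cells spent 7 days in culture and were sorted on F4/80, a surface protein of mouse macrophages. M0 cells had no added cytokines (5 arrays), M1 cells had IFN-g and LPS, the LPS over the last 24 h (3 arrays), and M2a cells had IL-13 together with IL-4 (3 arrays). RNA was hybridized to an Affymetrix array, and levels are deposited log2 values of 1 probe set per gene, given as mean ± SD. Differences are on the log2 scale with the standard error (SE) of a limma fit, and "called" means a Benjamini-Hochberg adjusted p under 0.05 over all 18193 genes. The fit pools the spread of all groups for each gene, so the SE of M1 against M2a also carries the spread of M0. The labels do not say whether replicates came from separate mice or cultures, so p-values cover the spread among these samples only, and that spread may be technical.

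Molecular chaperones bind unfolded protein and help it to fold. In the cytosol and nucleus, stress releases the transcription factor HSF1, which binds repeated GAA units in promoters and induces Hsp70, Hsp40 and small heat shock proteins; mitochondria use their own Hsp70 and the Hsp60-Hsp10 chamber. In the ER, the sensors IRE1 (Ern1), PERK (Eif2ak3) and ATF6 detect unfolded protein and start the unfolded protein response (UPR), in which XBP1 and ATF6 induce ER chaperones through the ER stress response element (ERSE) and PERK acts through ATF4 and CHOP (Ddit3). Macrophages secrete and display many proteins and so carry a constant load of ER folding.

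Motif letters in the promoters were searched by compartment, and a few promoters that hold them are shown before the values. The set lists known heat shock and ER chaperone genes, and these motifs belong to their known regulation as given above. Matches among them are therefore a description and no independent support. RefSeq windows of 250 bases before to 50 after a transcription start (GRCm38.p6) were found for 27 of the 34 genes. The heat shock pair GAANNTTC, which reads the same on both strands, was in 6 of 8 cytosolic and nuclear genes with a window (Hspa1a, Hspa1b, Hsph1, Hspb1, Dnaja1 and Bag3), in both mitochondrial genes with one (Hspd1 and Hspe1) and in 0 of 17 ER genes, against 9.04% of 27025 genes. The triplet GAANNTTCNNGAA or TTCNNGAANNTTC, which contains the pair, was in Hsph1, Hspd1 and Hspe1, against 0.662% of genes. The ERSE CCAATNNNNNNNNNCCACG, searched on both strands, was in 7 of 17 ER genes (Hspa5, Hsp90b1, Calr, Canx, Pdia6, Dnajc3 and Creld2), against 0.137% of genes. The shorter ERSE-II ATTGGNCCACG, which holds the CCACG end and the reverse of the CCAAT end of the ERSE, was in Dnajb11 and Herpud1, against 0.0444%. A match is a description of letters in these windows and not of a bound site. Capitals mark the motif, each stretch is printed 5′ to 3′ on the gene's own strand, and all lie upstream of the start.
Hspa1a promoter, the heat shock pair of the Hsp70 gene with the second largest M1 difference, chr17:34972157-34972306, minus strand: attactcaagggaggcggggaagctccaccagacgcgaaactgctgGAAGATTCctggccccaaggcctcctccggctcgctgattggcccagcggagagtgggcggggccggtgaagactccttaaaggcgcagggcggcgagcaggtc
Hspe1 promoter, the heat shock triplet shared with Hspd1, chr1:55087998-55088147, plus strand: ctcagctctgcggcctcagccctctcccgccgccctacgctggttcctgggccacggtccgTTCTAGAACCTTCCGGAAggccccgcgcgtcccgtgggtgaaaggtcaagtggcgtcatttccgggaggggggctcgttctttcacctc
Hspa5 promoter, 1 ERSE, chr2:34771940-34772089, plus strand: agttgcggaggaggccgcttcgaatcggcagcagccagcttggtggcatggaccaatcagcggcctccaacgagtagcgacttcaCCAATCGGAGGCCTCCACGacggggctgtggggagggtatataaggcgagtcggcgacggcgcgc
Hsp90b1 promoter, 2 ERSE copies on opposite strands, chr10:86705512-86705661, minus strand: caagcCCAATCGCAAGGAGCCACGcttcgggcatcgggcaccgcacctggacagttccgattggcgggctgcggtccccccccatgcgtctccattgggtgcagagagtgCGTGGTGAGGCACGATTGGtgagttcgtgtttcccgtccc
Calr promoter, 1 ERSE on the opposite strand, chr8:84846949-84847098, minus strand: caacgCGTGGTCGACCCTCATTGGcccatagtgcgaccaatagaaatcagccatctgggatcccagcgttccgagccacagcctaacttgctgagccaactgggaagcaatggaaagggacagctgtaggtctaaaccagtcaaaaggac
Creld2 promoter, 1 ERSE on the opposite strand, in the ER gene with the largest M1 difference, chr15:88819496-88819645, plus strand: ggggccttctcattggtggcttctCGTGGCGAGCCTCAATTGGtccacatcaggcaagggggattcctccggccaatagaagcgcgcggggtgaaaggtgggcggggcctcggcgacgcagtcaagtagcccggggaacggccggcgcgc
Herpud1 promoter, 1 ERSE-II, in the ER gene lower in M1, chr8:94386279-94386428, plus strand: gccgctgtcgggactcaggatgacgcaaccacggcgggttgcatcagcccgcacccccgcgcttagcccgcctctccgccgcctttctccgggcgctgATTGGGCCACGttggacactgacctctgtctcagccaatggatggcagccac

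Hspa1a and Hspa1b, neighbouring genes of inducible Hsp70, share 296 of 300 bases of their windows (98.7%), and signal of the RNA of one on the probes of the other cannot be told apart here, so they are not independent observations. Hspd1 and Hspe1 are transcribed in opposite directions. A window of Hspd1 overlaps that of Hspe1 by 285 bases, so the printed triplet lies upstream of both of these starts. Another Hspd1 window overlaps that of Hspe1 by 4 bases only and does not hold the triplet.

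Of the 10 measured cytosolic and nuclear genes, 7 were called higher and 0 lower in M1 than in M0, beside 22.1% and 17.6% of all genes, with a median difference of 0.59 against 0.06 over all genes; since this contrast chose the genes, nothing is read from it. In M2a against M0, 4 were called higher (Hspa1a, Hspa1b, Hsph1 and Bag3) and 1 lower (Hspb1), beside 18.6% and 13.3% of all genes, and the median difference was 0.03 against 0.07. In M1 against M2a, 5 were higher and 1 lower, beside 13.7% and 15.6% of all genes. The genes higher in M2a were inducible Hsp70 (Hspa1a and Hspa1b), the Hsp110 gene Hsph1 and the co-chaperone Bag3, while Hspa4, Hspa8, Hsp90aa1, Dnajb1 and Dnaja1 were not called there.

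Hspa1b read 4.67, 6.58, 5.96, 4.74 and 6.74 in M0, 9.49, 9.70 and 9.86 in M1, and 9.32, 9.49 and 8.73 in M2a. Every M1 and M2a array lay above every M0 array, and M0 arrays 1 and 4 lay well below the other M0 arrays. The difference from M0 was 3.94 ± 0.45 (SE) in M1 and 3.44 ± 0.45 in M2a (10.9-fold, adjusted p = 0.000151). Hspa1a, on its 1 probe set, read 4.73, 4.81, 4.88, 4.26 and 5.34 in M0, 7.79, 8.12 and 8.23 in M1, and 7.96, 8.13 and 7.52 in M2a. The groups again stood apart from M0, and M1 and M2a overlapped. Its difference was 3.25 ± 0.22 in M1 and 3.07 ± 0.22 in M2a (8.40-fold, adjusted p = 1.3e-06). The M0 means of Hspa1b (5.74) and Hspa1a (4.80) lay below the median gene of M0 (5.96), so their M0 signal may be background, and the folds hold for these values only.

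Hsph1, the Hsp110 protein that exchanges nucleotide on Hsp70, read 7.48, 8.55, 8.31, 7.74 and 8.49 in M0, 9.75, 9.70 and 9.75 in M1, and 10.32, 10.30 and 10.30 in M2a. The 3 groups did not overlap, in the order M0, M1, M2a. Its difference from M0 was 1.62 ± 0.22 in M1 and 2.20 ± 0.22 in M2a (4.58-fold, adjusted p = 1.84e-05). A second probe set of Hsph1 gave 2.46 and 2.23, so the order of M1 and M2a is not settled by this gene's probe sets. Bag3, a partner of Hsp70 in selective autophagy, lay between 7.26 and 8.17 in M0, 8.10 and 8.25 in M1, and 9.14 and 9.40 in M2a. It rose by 1.40 ± 0.18 in M2a (2.64-fold, adjusted p = 0.000119) with no overlap, while its M1 arrays overlapped M0 (difference 0.34 ± 0.18), and M1 lay below M2a by a difference of -1.06 ± 0.20.

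Hspa8, the constitutive Hsp70, read 12.25, 12.48, 12.35, 12.18 and 12.55 in M0, 13.06, 13.10 and 13.22 in M1, and 12.46, 12.46 and 12.52 in M2a. The M1 arrays stood above all others, and the M2a arrays lay within the M0 range. The differences from M0 were 0.76 ± 0.10 in M1 and 0.12 ± 0.10 in M2a (adjusted p = 0.418). Dnaja1, an Hsp40 that delivers clients to Hsp70, read 10.14, 10.29, 10.12, 9.71 and 10.65 in M0, 11.16, 11.08 and 11.13 in M1, and 9.94, 9.95 and 9.98 in M2a. It showed the same shape, with differences of 0.94 ± 0.16 in M1 and -0.22 ± 0.16 in M2a (adjusted p = 0.329), and M1 lay 1.17 ± 0.18 above M2a. The next probe sets lay 0.45 and 0.57 above M0 in M2a, the opposite sign.

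Hspb1, a small heat shock protein, read 7.14, 7.07, 6.72, 7.19 and 6.76 in M0, 7.19, 7.03 and 7.01 in M1, and 6.25, 6.18 and 6.25 in M2a. The M2a arrays lay below all 8 others, and it fell by 0.75 ± 0.12 in M2a (adjusted p = 0.000661). Dnajb1, the Hsp40 partner of inducible Hsp70, read 8.62, 8.72, 8.76, 8.37 and 9.03 in M0, 9.09, 8.99 and 9.07 in M1, and 8.64, 8.59 and 8.52 in M2a. Its M1 and M2a arrays both overlapped M0, with differences of 0.35 ± 0.13 and -0.12 ± 0.13 (adjusted p = 0.528 in M2a). A second probe set of Dnajb1 gave 1.08 and -0.26, so the size of its M1 difference depends on the probe set. Hsp90aa1, the inducible cytosolic Hsp90, differed by 0.42 ± 0.09 in M1 and -0.06 ± 0.09 in M2a (adjusted p = 0.656).

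Hspa4, a further Hsp110 family member, was the 1 cytosolic gene below M0 in M1, reading 10.06, 10.31, 10.38, 10.09 and 10.41 in M0, 10.052, 10.018 and 10.002 in M1, and 10.16, 10.20 and 10.16 in M2a. The M1 arrays lay just under the lowest M0 array, with a difference of -0.22 ± 0.10, and M2a lay within the M0 range. The next probe sets lay 0.92 and 1.05 above M0 in M2a, and the mean of its probe sets gave 0.46 in M2a (adjusted p = 0.0133), so the M2a result of Hspa4 depends on the probe set.

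**Figure D1:**
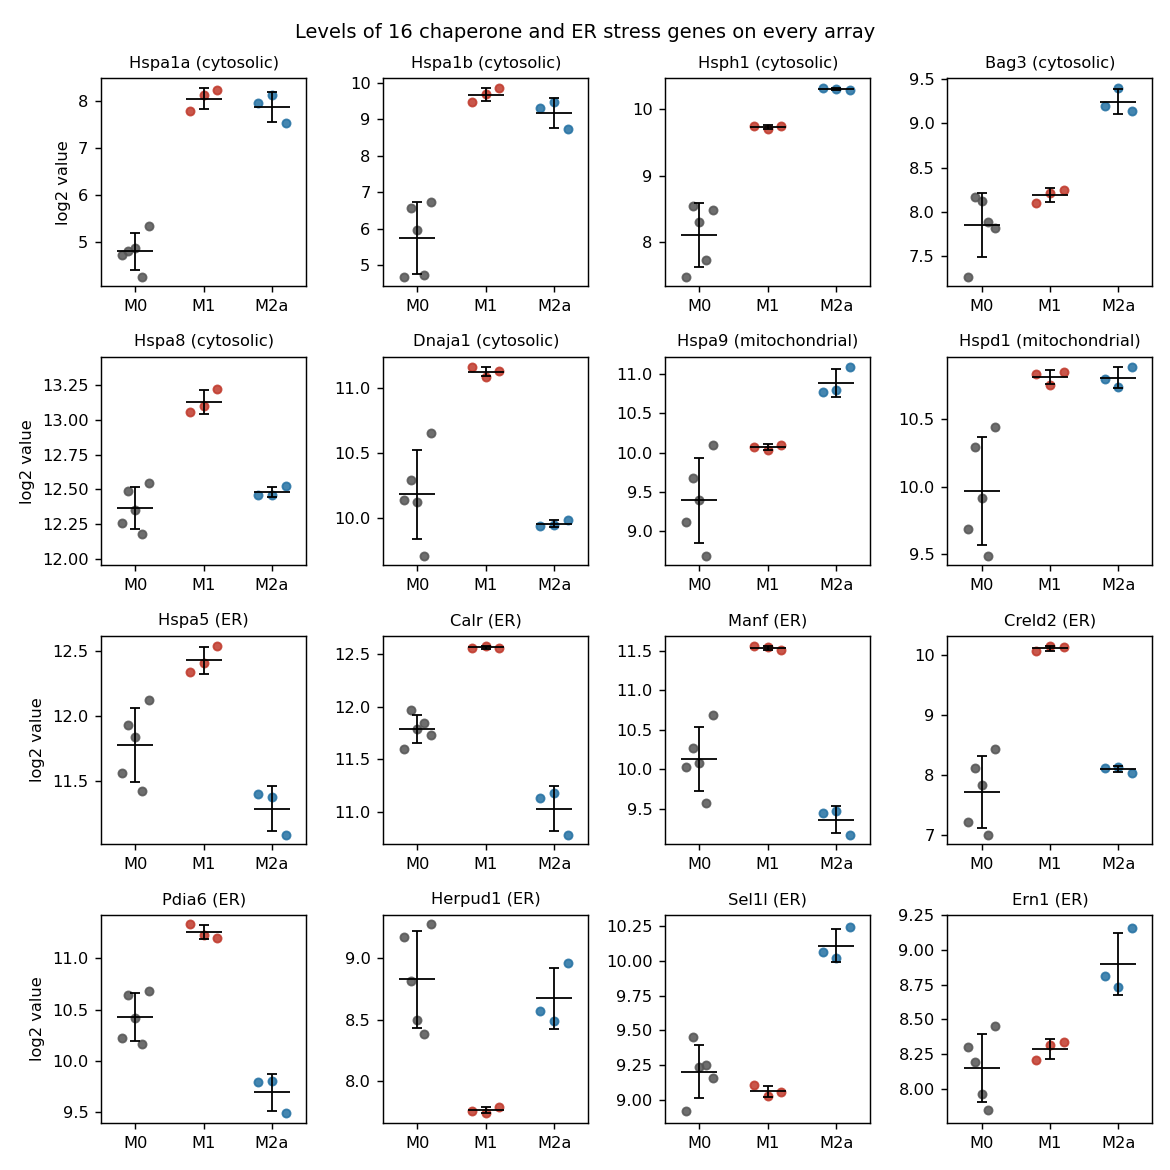
Log2 values of 16 genes on each array (points), with the mean (line) and SD (bars) of M0 (5 arrays), M1 (3) and M2a (3); each panel has its own axis, so heights are not comparable between genes. Hspa1a, Hspa1b and Hsph1 are high in both M1 and M2a, Hspa8 and Dnaja1 in M1, and Hspa5, Calr, Manf and Pdia6 are high in M1 and low in M2a.

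All 3 mitochondrial genes were called higher in M2a than in M0, beside 18.6% of all genes, with a median difference of 0.84 against 0.07 over all genes. In M1, 2 were called higher, beside 22.1% of all genes, with a median of 0.67 against 0.06. Hspa9, the mitochondrial Hsp70 that pulls imported protein into the matrix, read 9.11, 9.68, 9.39, 8.69 and 10.10 in M0, 10.07, 10.03 and 10.10 in M1, and 10.77, 10.79 and 11.10 in M2a. The M2a arrays stood above all others, whereas M0 array 5 reached the level of M1. Hspa9 rose by 1.49 ± 0.25 in M2a (2.82-fold, adjusted p = 0.00084), and its M1 difference was 0.67 ± 0.25. M1 lay below M2a by a difference of -0.82 ± 0.28.

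Hspd1, the Hsp60 chamber, read 9.69, 10.29, 9.92, 9.49 and 10.44 in M0, 10.83, 10.75 and 10.85 in M1, and 10.79, 10.74 and 10.89 in M2a. M1 and M2a coincided, a difference of 0.01 ± 0.21, and both stood above M0. It rose by 0.84 ± 0.19 in M2a (1.79-fold, adjusted p = 0.00537) and lay 0.85 ± 0.19 above M0 in M1. Hspe1, its Hsp10 lid, read 9.59, 10.39, 10.27, 9.71 and 10.46 in M0, 10.78, 10.74 and 10.73 in M1, and 10.63, 10.66 and 10.59 in M2a. The order M0, M2a, M1 had no overlap, and the M2a rise was 0.54 ± 0.19 (1.46-fold, adjusted p = 0.047). That call was lost in 14 of 25 alternative settings and its sign turned in 1, with a difference of 0.30 (adjusted p = 0.127) without probe sets that may match several transcripts.

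Of the 19 ER genes, 14 were called higher and 1 lower in M1 than in M0, beside 22.1% and 17.6% of all genes, with a median difference of 0.65; this contrast chose the genes. In M2a against M0, 2 were called higher (Sel1l and Ern1), 7 lower (Manf, Calr, Pdia6, Canx, Hspa5, Hsp90b1 and Xbp1) and 10 were not called, beside 18.6% higher and 13.3% lower of all genes, with a median of -0.35 against 0.07. The count of 7 lower was 4 without M2a replicate 3 and 11 without M0 replicate 4. It was also 4 with M0 arrays 4 and 5 as the only M0 arrays, a setting that leaves the differences from M0 unchanged. Between the cytokine states, 16 of 19 were called higher in M1 and 3 lower (Sel1l, Herpud1 and Ern1), beside 13.7% and 15.6% of all genes, with a median of 0.95 against -0.02 over all genes. The 2 comparisons with M0 share the M0 arrays, so a deviation of M0 moves both in the same direction.

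Among the general ER chaperones, Hspa5 (BiP), the ER Hsp70 that also holds the UPR sensors inactive, read 11.57, 11.93, 11.84, 11.43 and 12.13 in M0, 12.34, 12.41 and 12.55 in M1, and 11.40, 11.38 and 11.09 in M2a. All M1 arrays lay above and all M2a arrays below the M0 range, the last by a narrow gap to M0 array 4. The differences from M0 were 0.65 ± 0.15 in M1 and -0.49 ± 0.15 in M2a (adjusted p = 0.0304), and the M2a call was lost in 8 of 25 alternative settings, for example without M2a replicate 3 (-0.39, adjusted p = 0.141). Hsp90b1 (Grp94), the ER Hsp90, read 10.96, 11.31, 11.36, 11.12 and 11.30 in M0, 11.51, 11.56 and 11.65 in M1, and 10.82, 10.89 and 10.57 in M2a. It had the same order without overlap, with differences of 0.36 ± 0.11 in M1 and -0.45 ± 0.11 in M2a (adjusted p = 0.0112), and its call too was lost without M2a replicate 3 (-0.35, adjusted p = 0.0673). Both promoters carry the ERSE letters printed above.

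The lectin chaperones bind newly made glycoproteins. Calr, calreticulin, read 11.60, 11.97, 11.79, 11.84 and 11.73 in M0, 12.55, 12.58 and 12.56 in M1, and 11.13, 11.18 and 10.78 in M2a. The 3 groups were far apart, and M1 lay 1.54 ± 0.13 above M2a. Calr fell by 0.76 ± 0.11 in M2a (adjusted p = 0.000372) and stayed called in all 25 alternative settings, and its M1 difference was 0.78 ± 0.11. Canx, the membrane-bound calnexin, lay between 10.79 and 11.44 in M0, 11.31 and 11.43 in M1, and 10.46 and 10.57 in M2a. It fell by 0.60 ± 0.14 in M2a (adjusted p = 0.00612), while M1 overlapped M0 (0.24 ± 0.14). The other probe sets of Canx lay 1.11 and 0.30 above M0 in M1, so the size of its M1 difference depends on the probe set. The mean of its probe sets gave -0.43 in M2a (adjusted p = 0.144), which is not called.

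Protein disulfide isomerases make and shuffle disulfide bonds. Pdia6 read 10.22, 10.64, 10.42, 10.17 and 10.68 in M0, 11.33, 11.23 and 11.19 in M1, and 9.79, 9.81 and 9.49 in M2a. No group overlapped another, and Pdia6 fell by 0.73 ± 0.14 in M2a (adjusted p = 0.00179), with an M1 difference of 0.82 ± 0.14. Pdia3, which works with the lectin chaperones, and Pdia4 had M1 differences of 0.69 ± 0.17 and 0.52 ± 0.19. Their M2a differences were -0.26 ± 0.17 (adjusted p = 0.291) and -0.28 ± 0.19 (adjusted p = 0.296), and both overlapped M0. M2a replicate 2 read 10.48 for Pdia3 against 9.75 and 9.75 in the other M2a arrays, and without it the Pdia3 difference was -0.50 (adjusted p = 0.0276).

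The secreted and BiP-binding stress factors had the widest gaps. Creld2, a stress-induced ER protein, read 7.21, 8.11, 7.83, 7.00 and 8.43 in M0, 10.06, 10.14 and 10.12 in M1, and 8.11, 8.13 and 8.04 in M2a. M1 stood far above every other array, a difference of 2.39 ± 0.27, and M2a lay inside the M0 range (0.37 ± 0.27, adjusted p = 0.324). Manf, a secreted factor that binds BiP, read 10.03, 10.27, 10.08, 9.57 and 10.68 in M0, 11.56, 11.55 and 11.50 in M1, and 9.44, 9.47 and 9.17 in M2a. M2a lay below and M1 above all M0 arrays. The differences were 1.41 ± 0.20 in M1 and -0.76 ± 0.20 in M2a (adjusted p = 0.0113), and M1 lay 2.17 ± 0.22 above M2a, the widest gap of any ER gene. The M2a call was lost without M2a replicate 3 (-0.67, adjusted p = 0.0604).

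Sdf2l1, which keeps clients on BiP, read 9.26, 9.58, 9.38, 8.98 and 9.83 in M0, 10.61, 10.60 and 10.48 in M1, and 9.18, 9.18 and 8.62 in M2a. M2a overlapped the lower M0 arrays, and the differences were 1.16 ± 0.19 in M1 and -0.41 ± 0.19 in M2a (adjusted p = 0.114). Dnajb11, an ER Hsp40 of BiP, read 9.33, 9.65, 9.53, 8.93 and 10.08 in M0, 10.79, 10.76 and 10.76 in M1, and 9.58, 9.55 and 9.47 in M2a. It too was high in M1 alone, by 1.27 ± 0.20, with an M2a difference of 0.03 ± 0.20 (adjusted p = 0.928). The other co-chaperones Dnajb9 and Dnajc3 differed from M0 by 0.95 ± 0.18 and 0.57 ± 0.16 in M1. In M2a they differed by -0.05 ± 0.18 (adjusted p = 0.855) and -0.35 ± 0.16 (adjusted p = 0.125). Hyou1 (Grp170), the nucleotide exchange factor of BiP, was the 1 gene not called in M2a whose M2a arrays, 8.78 to 8.998, did not overlap M0, 8.16 to 8.75. Its differences were 0.86 ± 0.14 in M1 and 0.34 ± 0.14 in M2a (adjusted p = 0.0919).

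In UPR signalling, Ern1, which encodes the sensor IRE1, read 8.30, 8.19, 7.96, 7.85 and 8.45 in M0, 8.21, 8.32 and 8.34 in M1, and 8.82, 8.73 and 9.16 in M2a. It rose in M2a by 0.75 ± 0.15 (1.68-fold, adjusted p = 0.00231), while M1 lay inside the M0 range (0.14 ± 0.15). The mean of its 5 probe sets gave 0.28 in M2a (adjusted p = 0.0537), which is not called. Xbp1, the factor whose mRNA IRE1 splices, read 11.30, 11.23, 11.14, 11.12 and 11.33 in M0, 11.30, 11.34 and 11.31 in M1, and 10.90, 10.83 and 10.85 in M2a. M2a lay below all others, a fall of 0.36 ± 0.08 (adjusted p = 0.00531), and M1 overlapped M0 (0.09 ± 0.08). The other probe sets of Xbp1 gave 0.44, 0.12 and -0.56 in M1, so its M1 difference depends on the probe set. In M2a they gave -0.53, -0.27 and -0.31. The array values do not separate spliced from unspliced Xbp1.

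Sel1l, the adaptor of the ER-associated degradation (ERAD) ligase, read 8.92, 9.45, 9.24, 9.25 and 9.16 in M0, 9.10, 9.03 and 9.05 in M1, and 10.06, 10.02 and 10.25 in M2a. M2a stood above all others, a rise of 0.91 ± 0.12 (1.88-fold, adjusted p = 0.000114) that stayed called in all 25 alternative settings, and M1 lay within M0 (-0.14 ± 0.12). The other probe sets of Sel1l lay 0.27 to 1.29 above M0 in M1, so the sign of its M1 difference depends on the probe set. Herpud1, which organises the same ligase, went the other way in M1, reading 9.18, 8.81, 8.49, 8.38 and 9.28 in M0, 7.75, 7.74 and 7.78 in M1, and 8.57, 8.48 and 8.96 in M2a. The M1 arrays lay below all others, a difference of -1.07 ± 0.20, and M2a overlapped M0 (-0.16 ± 0.20, adjusted p = 0.596). Edem1, which marks glycoproteins for degradation, followed the chaperones in M1 with 0.61 ± 0.18, and its M2a difference of -0.36 ± 0.18 was not called (adjusted p = 0.14).

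**Figure D2:**
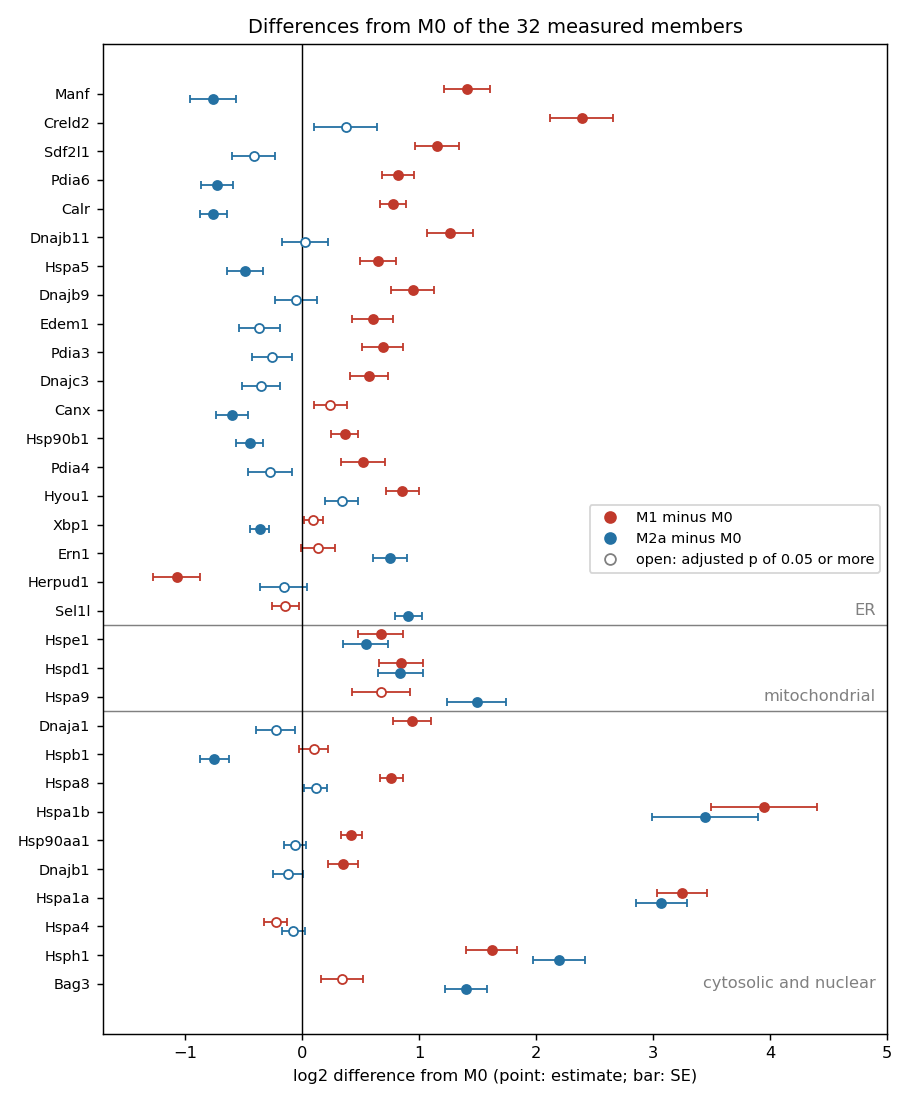
Log2 difference from M0 (points) with its SE (bars) for the 32 measured genes in M1 and M2a, 3 arrays each against 5 M0 arrays; open points have an adjusted p of 0.05 or more, and the M1 values chose the genes. ER chaperones such as Calr (0.78 and -0.76), Manf (1.41 and -0.76) and Pdia6 (0.82 and -0.73) lie on opposite sides of 0, and Hspa1a (3.25 and 3.07) and Hspd1 (0.85 and 0.84) on the same side.

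The genes with the ERSE letters are given apart for M2a against M0 only, since M1 values took part in choosing the set. Of the 7, 0 were called higher and 5 lower in M2a, with a median difference of -0.49. Of the 10 ER genes whose window holds no exact match to these letters, 2 were called higher and 1 lower. Near matches were not searched. Among 13 measured genes outside the set with the same letters, 4 were called higher and 1 lower in M2a, with a median of 0.14. Of the 8 measured genes with the heat shock pair, 6 were called higher and 1 lower in M2a. Among 1091 other measured genes with the pair, 17.0% were called higher and 13.0% lower in M2a, beside 18.6% and 13.3% of all genes.

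Several probe sets of a gene can disagree. Of the called genes with a second probe set, the second had the same sign in 17 of 17 for M1 against M0, in 13 of 13 for M2a against M0 and in 19 of 20 for M1 against M2a. The exception was Ern1, whose second probe set read higher in M1 than in M2a (0.45).

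Values of the array's control probe sets moved with the groups and with these genes. The difference between the 5′ and 3′ probe sets of the actin control, a measure of RNA and labelling quality, was -0.61 ± 0.47 (SD, n = 5) in M0, 0.15 ± 0.02 (n = 3) in M1 and -0.57 ± 0.06 (n = 3) in M2a. The hybridization controls, RNAs added to every array, read 11.15 ± 0.52 in M0, 9.71 ± 0.06 in M1 and 9.86 ± 0.09 in M2a, with no overlap between M0 and the cytokine groups. The probe sets of 18S ribosomal RNA read 9.25 ± 0.27 in M0, 6.25 ± 0.08 in M1 and 8.56 ± 0.07 in M2a, and those of the poly-A controls and other bacterial genes 8.86 ± 0.44, 5.32 ± 0.05 and 6.02 ± 0.09, so M1 stood apart from M2a in these as well. Within M0, array 4 had the lowest actin difference (-1.27) and array 5 the highest (0.05). Of the 19 ER genes, 15 were lowest in M0 array 4 and 15 highest in M0 array 5, and the median ER gene lay at -0.35 and 0.35 from the M0 mean there, as wide as its M2a median of -0.35. Over all genes, 25.2% were lowest in array 4 and 29.3% highest in array 5. On every probe set, M0 arrays 4 and 5 averaged to the mean of the other 3 M0 arrays within 8.33e-05. Deviations of arrays 4 and 5 from the M0 mean are therefore mirror images. Their opposite actin and ER extremes are not independent observations. The 5 M0 arrays thus hold fewer than 5 independent measurements, and the adjusted p against M0 may be too small.

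With the hybridization controls as a covariate, only 2 ER genes were called higher in M1 (median 0.01) and 15 lower in M2a (median -0.90), and the mitochondrial medians became -0.43 in M1 and -0.10 in M2a. With the actin difference as a covariate, 7 ER genes were called higher in M1 (median 0.28), 11 lower in M2a, and 0 mitochondrial genes in M1. The differences of Hspa1b from M0 in M2a ranged from 1.09 to 3.69 over the 25 alternative settings those of Hspa1a from 2.36 to 3.25 and those of Hsph1 from 1.06 to 2.30, all called, with the lowest value of each under the hybridization covariate. With that covariate Hspa9 (0.24, adjusted p = 0.39), Hspb1 (-0.37, adjusted p = 0.112) and Ern1 (0.46, adjusted p = 0.156) were not called in M2a. Between M1 and M2a, the ER median was 0.89 with the hybridization covariate and 0.53 with the actin covariate; the slopes of both covariates were fitted over all 11 arrays and rest largely on the M0 arrays, where these controls vary most. The part of RNA quality, ribosomal RNA and hybridization in these differences was not tested beyond these fits.

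**Figure D3:**
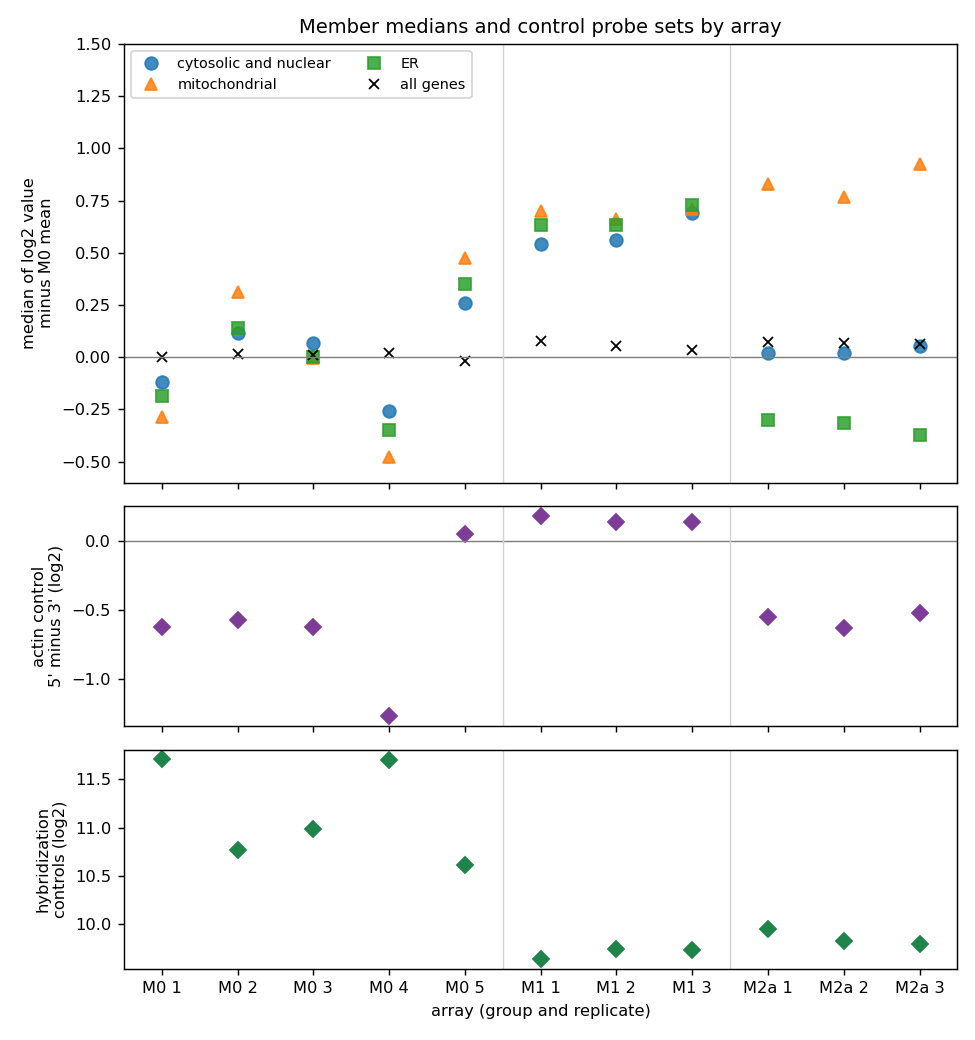
By array: the median over each compartment's genes of the log2 value minus the M0 mean (top), the actin control, 5′ minus 3′ (middle) and the mean of the hybridization controls (bottom). The ER median is 0.63 to 0.73 in M1 and -0.37 to -0.30 in M2a, and M0 arrays 4 and 5 lie at -0.35 and 0.35. The values of M0 arrays 4 and 5 mirror each other because these arrays average to the M0 mean.

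Genes of the same pathways outside the set were counted from lists, and those named as rising or falling were called. Of 39 other cytosolic and nuclear chaperones and co-chaperones, 14 were called higher and 2 lower in M1, and 11 higher and 1 lower in M2a. Hspa4l, an Hsp110 protein, rose by 1.90 and the Hsp40 Dnajb2 by 1.38 in M1, while Fkbp5, an Hsp90 co-chaperone of steroid receptors, fell by 2.53. The Hsp40 Dnajb4 rose by 1.22 in M1 and by 1.62 in M2a. Beside these counts stand 22.1% higher and 17.6% lower of all genes in M1, and 18.6% and 13.3% in M2a, for this and the lists that follow. Of 14 subunits of the TRiC chamber and its partner prefoldin, 3 were called higher and 3 lower in M1, and 5 higher and 0 lower in M2a, so its M1 counts lay near the shares over all genes. Of 17 other mitochondrial chaperones and proteases, 9 were called higher in each cytokine state and 1 lower in M1. The inner-membrane protease subunit Afg3l2 rose by 0.98 in M1 and 1.27 in M2a, and the matrix protease Lonp1 by 1.02 in M2a.

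Of 40 other ER folding genes, 16 were called higher and 3 lower in M1, and 9 higher and 8 lower in M2a. Hspa13, an ER Hsp70, rose by 1.39 in M1. Tapbp, the tapasin of MHC class I loading, rose by 1.36 in M1 and fell by 0.39 in M2a. The disulfide isomerase P4hb rose by 0.66 in M1 and fell by 0.44 in M2a, and the collagen chaperone Serpinh1 fell by 1.83 in M2a. Prkcsh, a subunit of glucosidase II, rose by 0.81 in both states. Of 26 other ERAD genes, 12 were called higher and 2 lower in M1, and 9 higher and 5 lower in M2a. Edem2 and the ligase Syvn1, the partner of Sel1l, rose by 1.45 and 1.03 in M1. Svip, an inhibitor of ERAD, fell by 3.37 in M1 and fell by 2.02 in M2a.

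Of 16 other UPR regulators, 5 were called higher and 2 lower in M1, and 8 higher and 1 lower in M2a. Wfs1, an ER membrane protein, rose by 4.18 ± 0.16 in M2a (adjusted p = 1.07e-08), from 6.11 ± 0.28 to 10.29 ± 0.25, and by 0.97 ± 0.16 in M1. Trib3, a target of CHOP, rose by 3.62 ± 0.28 in M2a (adjusted p = 2.44e-06). Ddit3, which encodes CHOP, fell by 0.50 ± 0.12 in M1 and rose by 1.46 ± 0.12 in M2a, and Atf4 rose by 0.76 ± 0.09 in M2a; the M2a values of both were picked after they were seen. Eif2ak3, the PERK sensor, fell by 0.77 in M1 and fell by 0.84 in M2a. Atf6b, a paralog of ATF6, rose by 0.88 in M1 and 0.26 in M2a.

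**Figure D4:**
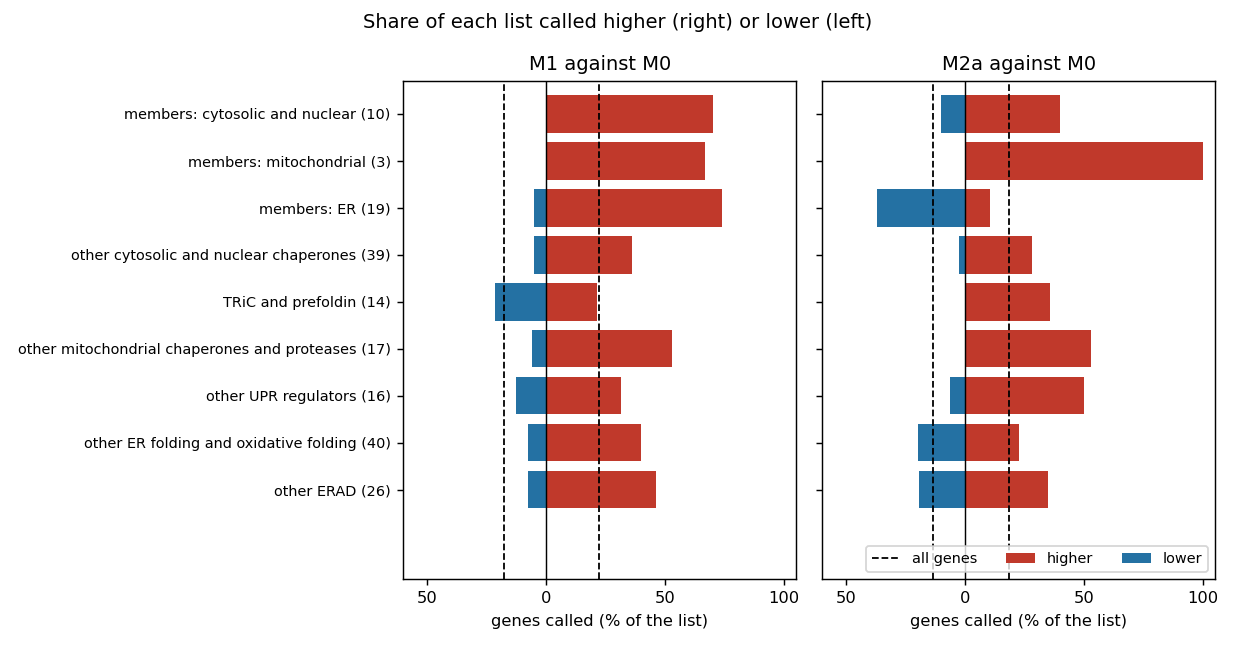
Share of each gene list called higher (right) or lower (left) in M1 and M2a against M0, with the number of measured genes in brackets and the shares over all genes as dashed lines. The ER genes of the set are called lower in M2a more often than higher (7 against 2), and the other ER folding genes about as often (8 against 9).

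The sorted cells were checked against marker genes. Of 9 measured macrophage markers, 5 were called higher and 1 lower in M1, and 2 higher and 5 lower in M2a. Of 11 markers of the neutrophil lineage, 10 were called lower in M1 and 11 in M2a. The log2 of their summed linear values was 15.73 to 16.71 in M0, 13.60 to 13.71 in M1 and 9.12 to 9.25 in M2a. The sums that follow were formed in the same way, so the genes of highest signal weigh most in them. The macrophage markers summed to 14.98 to 15.39 in M0, 15.69 to 15.70 in M1 and 14.64 to 14.74 in M2a. The neutrophil sum thus lay above the macrophage sum on every M0 array and below it in M1 and M2a. Sums over different genes do not give cell numbers. Of 10 eosinophil, basophil and mast cell markers, 10 were called lower in M1 and 9 in M2a. B and plasma cell markers, of cells rich in ER chaperones, summed to 9.73 to 10.26 in M0, 9.09 to 9.23 in M1 and 8.92 to 9.33 in M2a. Of 10 stroma and endothelium markers, 1 was called higher and 3 lower in M1, and 0 higher and 7 lower in M2a. The 7 measured erythroid and megakaryocyte markers summed to 11.72 to 12.37 in M0, 8.83 to 8.92 in M1 and 9.24 to 9.55 in M2a. Of these 7, 2 were called higher and 3 lower in M1, and 0 higher and 3 lower in M2a. The 6 measured T and NK cell markers summed to 8.85 to 10.52 in M0, 8.56 to 8.60 in M1 and 11.52 to 11.58 in M2a, with 2 called higher in M2a. The 6 measured monocyte and dendritic cell markers summed to 10.88 to 12.64 in M0, 9.80 to 9.97 in M1 and 7.74 to 7.82 in M2a, with 1 called higher and 1 lower in M2a. Of the 9 measured B and plasma cell markers, 5 lay below the median gene in M0, and 6 in M1 and M2a. These transcripts moved with the groups, and their part in the differences from M0 was not tested. In such bulk samples, fewer cells of a type and less RNA per cell cannot be told apart.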

How the data were processed

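The authors deposited log2 values of 45101 probe sets per array, from 0.73 to 14.49, with array medians of 5.14 to 5.34. The submitters' processing notes name Partek with no version; how background was corrected and probes were summarised and normalized is not given in the sources used here. Of 34945 probe sets with 1 gene symbol, 34741 had an Entrez identifier found in RefSeq and took the RefSeq symbol, whether or not it differed. The others kept their listed symbol, and 932 probe sets with several symbols were left out. For each of 18193 genes the probe set of highest mean over all arrays was taken, with no filter on low values. Groups were compared with limma 3.58.1 under R 4.3.3 (lmFit then eBayes on all 11 arrays together, Benjamini-Hochberg over all genes). The code was tried on simulated data with independent arrays and a common spread per gene. That setting lacks the tie among the M0 arrays and their wider spread, so it does not vouch for the p-values here. The fit counts the M0 arrays as independent. The number of arrays limits the precision.

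The genes of the set, the pathway lists and the marker lists were chosen with earlier results of these data known. Values on every array are given for the 4 largest rises and 3 largest falls in M1 against M0 and the 3 largest rises and falls in M2a against M0 among cytosolic and among ER genes, for the 3 mitochondrial genes, and for Hspa1a, Hspa1b, Hspa8, Hspa5, Hsp90b1, Xbp1 and Ern1. Of each pathway list, up to 2 called rises and 2 called falls per comparison with M0 could be named. The 25 alternatives were other normalizations, probe set choices, fits of fewer arrays, array weights, control-probe covariates, the replicate number as a block and each array left out in turn. Promoter sequences and gene symbols are from RefSeq (GRCm38.p6 for the sequences).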

Additional observations from a re-analysis of the deposited data

How the results depend on the processing

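Each count and difference was recomputed under 25 alternatives, 11 of which left out 1 array. No called difference of a gene changed sign when 1 array was left out. With the hybridization controls as a covariate, M1 against M0 gave 3 cytosolic genes higher and 1 lower (median 0.27), 0 mitochondrial genes higher and 2 lower (median -0.43), and 2 ER genes higher and 2 lower (median 0.0059). Among differences called in either fit, those that turned sign there were Dnajb1 (-0.20), Hspa9 (-0.72), Hspd1 (-0.20), Hspe1 (-0.43), Hspa5 (-0.059), Canx (-0.45), Pdia4 (-0.37), Dnajc3 (-0.15) and Edem1 (-0.11). M2a against M0 gave 4 cytosolic genes lower (median -0.29), 0 mitochondrial genes higher and 1 lower (median -0.10), and 1 ER gene higher and 15 lower (median -0.90), and among differences called in either fit Hspd1 (-0.10), Hspe1 (-0.44), Dnajb11 (-0.89) and Creld2 (-1.07) turned; Hspa8 (-0.24) and Hyou1 (-0.26), called in neither, turned too. M1 against M2a gave 3 cytosolic genes lower and medians of 0.32 (cytosolic), -0.10 (mitochondrial) and 0.89 (ER). These controls do not overlap between M0 and the other groups, so covariate and group cannot be told apart.

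With the actin difference as a covariate, M1 against M0 gave 1 cytosolic gene lower, 0 mitochondrial genes higher (median 0.23) and 7 ER genes higher (median 0.28), and of the differences called in either fit Dnajb1 (-0.027) and Pdia4 (-0.10) turned. M2a against M0 gave 2 cytosolic and 11 ER genes lower. M1 against M2a gave 2 cytosolic genes lower (median -0.11), 2 mitochondrial genes lower (median -0.53, with Hspd1 at -0.53) and an ER median of 0.53.

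Quantile normalization gave 1 cytosolic and 2 ER genes lower in M1 against M0, 2 cytosolic and 11 ER genes lower in M2a against M0, and 3 cytosolic genes lower in M1 against M2a, with medians of 0.34 (cytosolic), -0.14 (mitochondrial) and 0.80 (ER). Array weights gave 1 cytosolic and 2 ER genes lower in M1 against M0, 2 cytosolic and 11 ER genes lower in M2a against M0, and 3 cytosolic genes lower in M1 against M2a. Averaging the probe sets of each gene gave 1 cytosolic gene lower in M1 against M0. In M2a against M0 it gave a cytosolic median of 0.36, 1 ER gene higher and Hspa4 at 0.46, and in M1 against M2a 2 cytosolic genes and 1 ER gene lower. With M0 arrays 4 and 5 only, 8 ER genes were higher in M1 and 4 lower in M2a than in M0, and 2 cytosolic and 0 mitochondrial genes were lower in M1 than in M2a. Keeping only M0 arrays 1 to 3, or only 4 and 5, cannot change a difference from M0, because of the tie among the M0 arrays. Counts can move in these settings only through the SE and the adjusted p. Without M0 arrays 1 and 4, 1 cytosolic gene was lower in M1, 4 cytosolic and 12 ER genes were lower in M2a than in M0, and 2 cytosolic genes were lower in M1 than in M2a. Fitting only the 2 groups compared gave 3 cytosolic genes lower, and centring arrays on their median 0 mitochondrial genes lower, in M1 against M2a. The cause of these moves was not tested beyond the arrays each fit used.

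When 1 array was left out, ER genes lower in M2a than in M0 numbered 4 to 11 (11 without M0 replicate 4, 4 without M2a replicate 3), mitochondrial genes higher in M1 than in M0 1 to 3, and cytosolic genes lower in M1 than in M0 0 to 1. In M1 against M2a, cytosolic genes lower numbered 1 to 2, mitochondrial genes lower 0 to 1, and the medians ran from 0.35 to 0.49 (cytosolic) and 0.87 to 0.98 (ER). Deviations of same-numbered M0 and M1 arrays correlated over genes at 0.25, 0.04 and 0.17, and those of differently numbered arrays at -0.24 to 0.22. Whether the numbers pair M0 with M1 arrays is not settled by these values. For M0 and M2a the correlations were -0.04 to 0.008 for same-numbered and -0.04 to 0.04 for differently numbered arrays. With the replicate block, 9 ER genes were lower in M2a than in M0 against 7 without it, and 13 higher in M1 against 14.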
